A study of Sus scrofa with 2 samples.

Results

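Interneuron neuropeptide and calcium-binding marker genes were followed in the hippocampus, a brain region on which memory depends, of Rongchang piglets. The group was set by name as 10 genes, SST, NPY, VIP, CCK, CORT, PENK, TAC1, PVALB, CALB2 and RELN, and a gene was found where its Ensembl pig gene ID stood in the deposited table. Of the 10, 9 were found, each with 1 ID, among 25322 IDs in all, and these 9 passed the minimum mean level of 1 used below. For SST, which encodes somatostatin, the paired ID had no row, so it was not analysed here. RNA sequencing was done on 1 sample from piglets that received iron dextran, an injectable iron-carbohydrate preparation used against anaemia in newborn pigs, and on 1 control sample. Both samples carry the genotype label "wide type" and come from the Rongchang breed at the piglet stage. The sources used here do not give the dose, the age, the interval after treatment or the number of piglets. Each sample has a pair of names in its description, which may stand for animals, libraries or runs, and a single value per gene.

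Interneurons are the local inhibitory cells of the hippocampus, and most release GABA. They are sorted into classes by the neuropeptide they store in dense-core vesicles and by the calcium-binding protein in their cytoplasm. Parvalbumin cells are fast-spiking and contact the soma or axon start of pyramidal cells, somatostatin and neuropeptide Y cells contact dendrites, VIP and calretinin cells largely contact other interneurons, and cholecystokinin cells form a separate class of basket cell. Several of these genes are also used outside interneurons: in rodents, CCK is made by pyramidal cells, and PENK and TAC1 by projection neurons of the striatum.

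Values are FPKM, which divide a gene's fragments by its transcript length and by the library's mapped fragments, so levels of different genes are per length. Differences are iron dextran minus control, taken after log2(FPKM + 1); the added 1 understates differences of low genes. A gene was called higher or lower where this difference reached 1.5-fold. With 1 sample a group there is no spread between replicates, no test was made, and no difference below has a replicate check. FPKM values summed to 850165 in the iron dextran sample and 924070 in control, and 16865 IDs were above 0 in iron dextran and 16727 in control. The number of fragments is unknown. The most common ratio between the samples among 690 low genes put the iron dextran sample at 1.05 times the depth of control. This is a loose estimate, since 27.7% of those genes lay within 0.05 log2 units of that ratio.

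None of the 9 measured genes was 1.5-fold higher in the iron dextran sample and none was 1.5-fold lower. Among all 12557 genes whose mean FPKM reached 1, 2.47% were higher by that much and 1.47% lower, so a count of 0 of 9 in each direction is near the background. Of the 9 differences, 6 were above 0 and 3 below, with a median of 0.13, against a median of −0.0046 over all genes tested, of which 49.01% were above 0. With the limit set at a log2 difference of 0.32 in place of 0.58, RELN and PENK were higher and CORT was lower, and 8.81% of all genes were higher and 5.96% lower. At 2-fold, again 0 of the 9 were called in either direction, beside 0.741% of all genes higher and 0.422% lower. In bulk tissue, fewer cells of a type and less RNA per cell cannot be told apart.

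**Figure D1:**
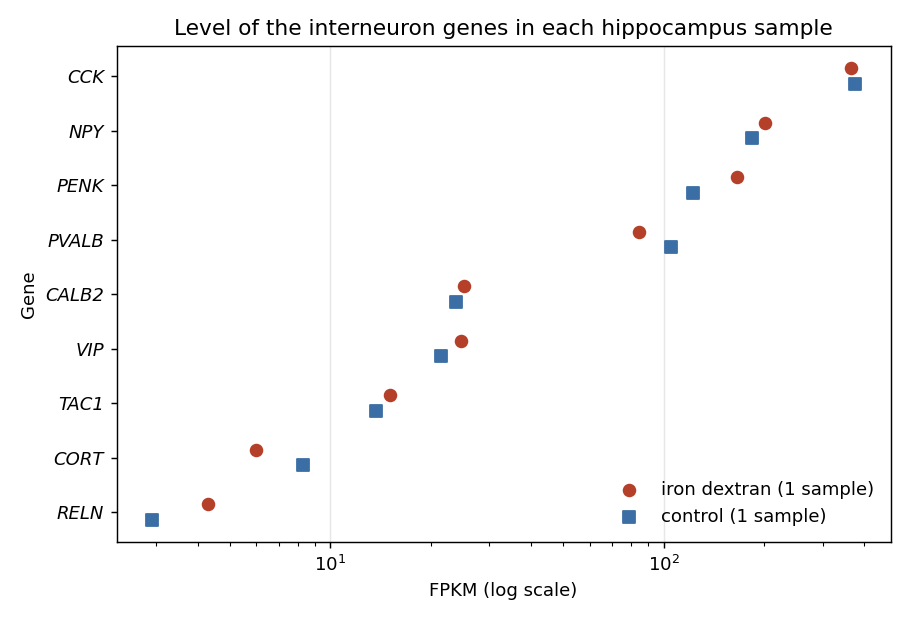
FPKM on a log axis of the 9 measured genes in the iron dextran sample (circles) and the control sample (squares), 1 point a sample and no error bars since there were no replicates. The order from CCK to RELN is the same in both samples, and the gap between the points is widest for RELN, PENK, CORT and PVALB.

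The genes spanned a wide range of levels and kept the same order in both samples. CCK was the highest and RELN the lowest, 84.9-fold apart in iron dextran and 128.8-fold apart in control. In descending order came CCK, NPY, PENK, PVALB, CALB2, VIP, TAC1, CORT and RELN. CALB2 and VIP stood next to each other at 25.1 and 24.7 FPKM in iron dextran and at 23.8 and 21.6 FPKM in control, and without replicates no neighbours in this order can be separated by a spread. CCK was the 249th most abundant ID in iron dextran and the 253rd in control.

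Among the neuropeptides, PENK had the largest difference above 0. PENK (ENSSSCG00000006243), the precursor of the enkephalins, which act on opioid receptors, had 166 FPKM in the iron dextran sample, against 123 FPKM in control. The ratio was 1.35 and the log2 difference 0.43, which 7.99% of all genes tested matched or passed in size. Genes of like level rarely lay above 0: of 1667 genes with a mean FPKM from 50 to 500, 24.5% did. For the 1004 genes within 2-fold of the mean of PENK, the quartiles of the difference were −0.15 and −0.0092, both below its value. PENK was above 0 in each of 11 settings of pseudocount, filter and scaling, between 0.26 and 0.55. The filters leave the value of a gene unchanged, and most of the scalings move all genes by about the same amount. These settings, here and for CORT and PVALB below, are therefore not independent checks of a direction.

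NPY (ENSSSCG00000016718) encodes neuropeptide Y, which damps glutamate release in the hippocampus. It had 202 FPKM in iron dextran, against 185 FPKM in control, a log2 difference of 0.13. This was above the upper quartile, −0.015, of the 766 genes of like level. Relative to the median of 4 genes that mark GABA cells, described below, it turned to −0.042. VIP (ENSSSCG00000004078), vasoactive intestinal peptide, had 24.7 FPKM in iron dextran, against 21.6 FPKM in control, a log2 difference of 0.19 that shrank to 0.02 relative to the same 4 genes.

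TAC1 (ENSSSCG00000023592), the precursor of substance P, had 15.1 FPKM in iron dextran, against 13.7 FPKM in control. Its log2 difference of 0.13 was just above the upper quartile of genes of like level, 0.12, and turned to −0.039 relative to the 4 GABA cell genes. CCK (ENSSSCG00000011277), cholecystokinin, had 364 FPKM in iron dextran, against 376 FPKM in control. Its difference of −0.044 turned above 0 with both columns scaled to the same total (0.08), also without mitochondrial genes (0.07), and after centring by expression bin (0.06), so its direction depends on the scaling. SLC17A7, the glutamate transporter that marks the excitatory cells in which rodents also make CCK, stood at 611 FPKM in iron dextran and 658 FPKM in control.

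CORT (ENSSSCG00000027822) encodes cortistatin, a peptide related to somatostatin that binds the same receptors. It had 6.01 FPKM in iron dextran, against 8.29 FPKM in control, a ratio of 0.725 and a log2 difference of −0.41, the lowest of the 9. Of all genes tested, 8.975% differed by as much. It was below 0 in each of the 11 settings, between −0.58 and −0.30. In the RefSeq gene table of a later pig assembly, Sscrofa11.1, the gene beside CORT is APITD1, now called CENPS, a kinetochore component. CENPS had 8.85 FPKM in iron dextran, against 15.8 FPKM in control, a log2 difference of −0.77. The neighbours of CORT and PVALB were chosen for mention after their values were seen, and the part of reads from CENPS in the difference of CORT was not tested. DFFA, on the other side of CORT, had 12.8 FPKM in iron dextran and 13.8 FPKM in control.

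Summed over the 6 measured peptide genes, the level was 777 FPKM in iron dextran and 726 FPKM in control. CCK made up 46.9% of that sum in iron dextran and 51.7% in control, NPY 25.96% in iron dextran and 25.4% in control, and PENK 21.3% in iron dextran and 16.9% in control. VIP, TAC1 and CORT together made up the small remainder in both samples. The ratio of PENK to NPY was 0.820 in iron dextran and 0.665 in control, and that of PENK to TAC1 was 10.9 in iron dextran and 8.94 in control. Such ratios within a sample do not depend on a scaling that moves all genes by 1 factor. Centring by expression bin does move genes apart: PENK went from 0.43 to 0.52 and TAC1 from 0.13 to 0.12.

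PVALB and CALB2, the calcium-binding protein genes of the group, lay on opposite sides of 0 as deposited. PVALB (ENSSSCG00000000138), parvalbumin, buffers calcium in fast-spiking basket and axo-axonic cells. It had 84.4 FPKM in iron dextran, against 105 FPKM in control, a ratio of 0.804 and a log2 difference of −0.31. This lay below the lower quartile, −0.15, of 1431 genes of like level, and 15.8% of all genes tested differed by as much. It was below 0 in each of the 11 settings, between −0.48 and −0.19. In the RefSeq table PVALB overlaps NCF4, a component of the phagocyte oxidase, which had 3.93 FPKM in iron dextran and 3.98 FPKM in control.

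CALB2 (ENSSSCG00000002730), calretinin, marks interneurons that contact other interneurons and, in some species, mossy cells of the dentate gyrus. It had 25.1 FPKM in iron dextran, against 23.8 FPKM in control, a log2 difference of 0.07 that lay inside the quartiles of genes of like level and turned to −0.095 relative to the 4 GABA cell genes. The ratio of PVALB to CALB2 was 3.36 in iron dextran, against 4.41 in control, and that of PVALB to NPY was 0.418 in iron dextran, against 0.568 in control.

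RELN (ENSSSCG00000015426) encodes reelin, a large secreted glycoprotein that guides neuronal layering in development and is made by Cajal-Retzius cells and later by interneurons. It had 4.29 FPKM in iron dextran, against 2.92 FPKM in control. The ratio was 1.47, the highest of the 9, and the log2 difference 0.43, which was 0.56 with a pseudocount of 0.01 and was 0.26 relative to the 4 GABA cell genes. Genes of low level lay more often above 0: of 6366 genes with a mean FPKM from 1 to 10, 59.4% did. The upper quartile of the 4056 genes within 2-fold of RELN was 0.21, below its value.

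**Figure D2:**
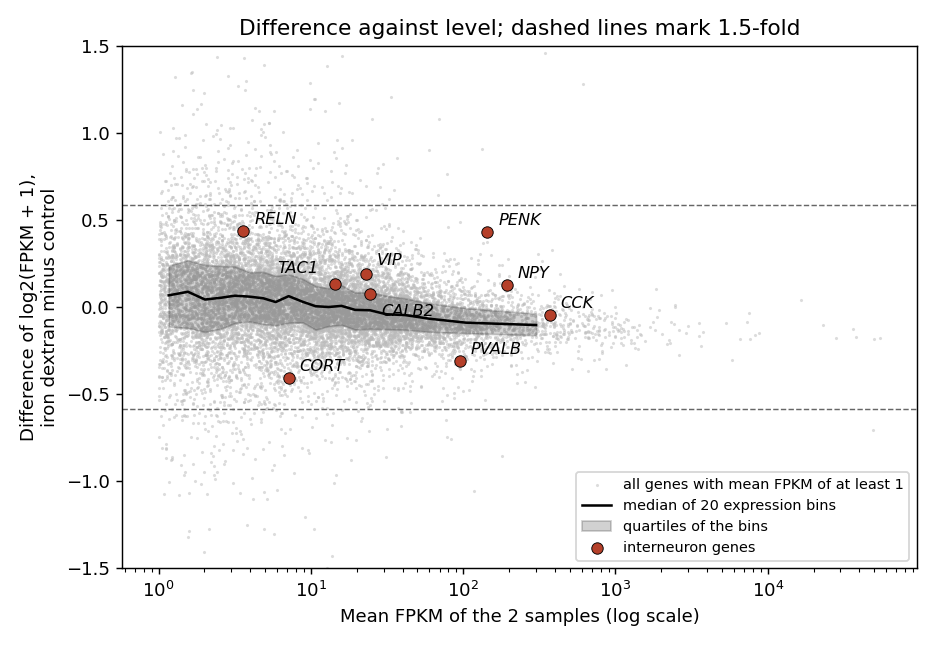
Iron dextran minus control, as log2(FPKM + 1), against mean FPKM on a log axis; grey points are all genes tested, the line and band are the median and quartiles of 20 bins of expression, and dashed lines mark 1.5-fold. A further 75 genes beyond 1.5 on the vertical axis in either direction are not drawn; the band sinks below 0 at high levels, PENK, NPY and RELN sit above it, and PVALB and CORT below it.

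Of the 9 genes, 5 lay above the upper quartile of the genes within 2-fold of their own level, 2 lay inside the quartiles and 2 lay below the lower quartile. The genes whose pair of values came closest were GSTA4 and ARPC3 for CCK, at Euclidean distances of 0.036 and 0.038 over the 2 log2 values. For NPY they were TMBIM6 and SYNGR1 (0.038 and 0.055), and for PENK they were TST and SLC1A3 (0.15 and 0.23). With 2 samples this measure says only that levels are alike.

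The genes that define a GABA cell were compared next. The list of 4 included GAD1 and GAD2, which make GABA, and SLC32A1, which loads it into vesicles. All 4 were above 0, none by 1.5-fold, with a median of 0.17. GAD1 had 99.2 FPKM in iron dextran, against 86.1 FPKM in control, and GAD2 had 16.9 FPKM in iron dextran, against 15.6 FPKM in control. SLC32A1 had 31.5 FPKM in iron dextran, against 28.6 FPKM in control. Relative to the mean of GAD1 and GAD2, PVALB stood at 1.45 in iron dextran and 2.06 in control. On the same footing CORT stood at 0.103 in iron dextran and 0.163 in control, PENK at 2.85 in iron dextran and 2.41 in control, and VIP at 0.426 in iron dextran and 0.424 in control.

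Receptors of these peptides had 8 measured genes of 19 listed, with 5 above 0, 3 below, none past 1.5-fold and a median of 0.08. Among the somatostatin and cortistatin receptors, SSTR1 had 18.4 FPKM in iron dextran and 13.3 FPKM in control, SSTR2 had 24.8 FPKM in iron dextran and 24.1 in control, and SSTR3 had 3.99 FPKM in iron dextran and 4.87 in control. SSTR1 was thus above control and SSTR3 below it. Of the neuropeptide Y receptors, NPY1R had 15.2 FPKM in iron dextran and 13.9 FPKM in control, and NPY5R had 14.8 FPKM in iron dextran and 16.2 in control. VIPR1, a receptor of VIP, had 1.97 FPKM in iron dextran and 2.66 FPKM in control. The opioid receptor OPRK1 had 1.38 FPKM in iron dextran and 0.935 FPKM in control, and the tachykinin receptor TACR3 had 1.32 FPKM in iron dextran and 0.710 in control, near the minimum level. The 4 with a row below that level were NPY2R, VIPR2, OPRM1 and TACR2, of which TACR2 was listed at 0 in iron dextran.

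Genes that process and store neuropeptides had 10 measured members of 13, with 7 above 0, 3 below, none past 1.5-fold and a median of 0.08. The convertases PCSK1 and PCSK2, which cut precursors, had 15.8 and 26.4 FPKM in iron dextran, against 13.7 and 25.2 FPKM in control. CPE, which trims the cut ends, had 985 FPKM in iron dextran and 918 FPKM in control, and PAM, which amidates peptides, had 101 FPKM in iron dextran and 90.5 in control. These 4 processing enzymes were above control by at most 0.19 on the log2 scale. PCSK1N, an inhibitor of PCSK1, had 1027 FPKM in iron dextran and 1161 FPKM in control, and SCG5, a chaperone of PCSK2, had 304 FPKM in iron dextran and 339.5 in control. The granins CHGA, SCG2 and SCG3, which help form dense-core vesicles, had 167, 97.9 and 66.03 FPKM in iron dextran and 174, 82.3 and 65.9 FPKM in control. CADPS2, which primes these vesicles for release, had 9.09 FPKM in iron dextran and 7.82 FPKM in control.

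Downstream of reelin, all 7 measured genes of 8 listed lay within 1.5-fold, 5 above 0 and 2 below, with a median of 0.04. The receptors LRP8 and VLDLR had 7.09 and 21.30 FPKM in iron dextran, against 8.19 and 21.29 FPKM in control. The adaptor DAB1 had 17.9 FPKM in iron dextran and 17.3 FPKM in control, and the kinase FYN, which phosphorylates it, had 196 FPKM in iron dextran and 212 in control. CRKL had 28.6 FPKM in iron dextran and 27.8 FPKM in control, PAFAH1B1 had 65.3 FPKM in iron dextran and 62.0 in control, and the integrin ITGA3 had 5.14 FPKM in iron dextran and 3.77 in control. The receptors and DAB1 thus differed by less than RELN itself.

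**Figure D3:**
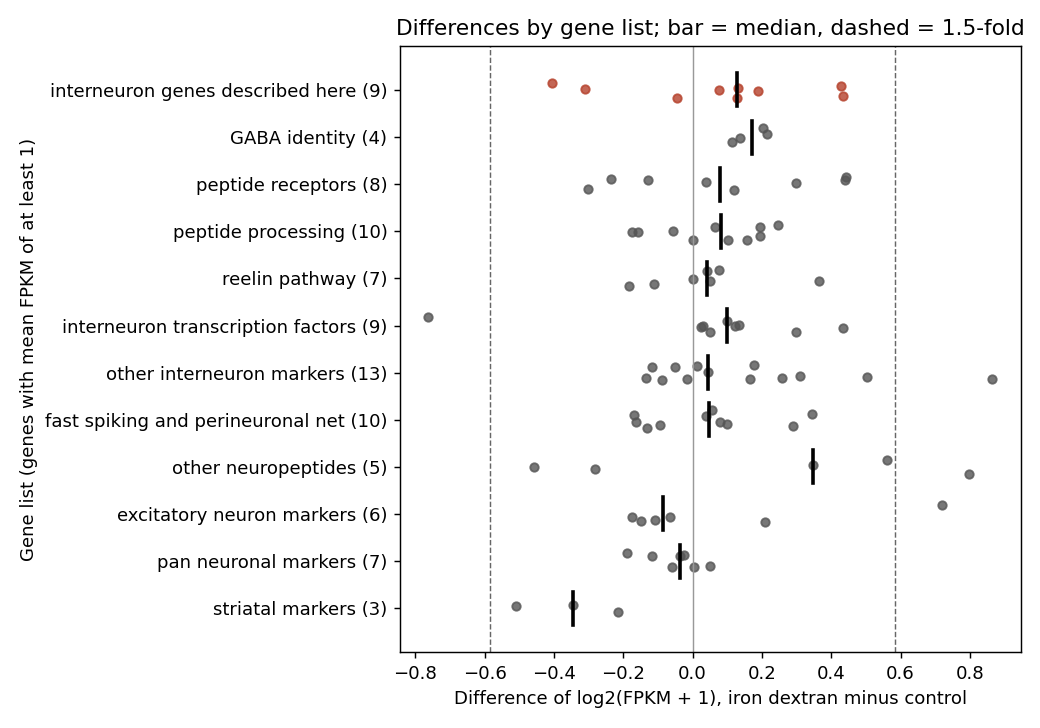
Each point is a gene tested, placed by its log2(FPKM + 1) in iron dextran minus that in control, by list with the number measured; bars are medians and dashed lines mark 1.5-fold. All 4 GABA identity genes lie above 0, the interneuron genes spread from −0.41 to 0.43, and CNR1, GAL and CAMK2A lie above the upper 1.5-fold line.

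Transcription factors and identity genes of interneurons had 9 measured members of 19, 8 above 0 and 1 below, with a median of 0.10. SATB1, which acts in somatostatin and parvalbumin cells, had 14.6 FPKM in iron dextran and 13.4 FPKM in control. Of 13 other measured interneuron markers, 8 were above 0 and 5 below (median 0.04), and CNR1, the cannabinoid receptor of cholecystokinin basket cells, was higher past 1.5-fold, with 6.36 FPKM in iron dextran and 3.04 FPKM in control. CXCL14 had 192 FPKM in iron dextran and 208 FPKM in control, and LAMP5 had 70.3 FPKM in iron dextran and 74.8 in control. CNR1 was the 1 marker of these 13 past 1.5-fold, while CCK, made by the same basket cells, differed by −0.044. CALB1, near the minimum level, had 1.56 FPKM in iron dextran and 0.802 FPKM in control. Its ratio was 1.94, but with the added 1 its log2 difference was 0.50, under the limit.

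Of the genes linked to fast-spiking cells and the matrix around them, 6 of 10 measured were above 0 and 4 below, none past 1.5-fold, with a median of 0.05. The matrix proteoglycan BCAN had 192 FPKM in iron dextran and 216 FPKM in control, and PTPRZ1 had 50.6 FPKM in iron dextran and 49.3 in control. Of 20 other neuropeptide genes listed, 5 were measured, 3 above 0 and 2 below, with a median of 0.35. The 3 above 0, GAL, NPPC and AVP, were near the minimum level, with mean FPKM of 1.93, 1.56 and 1.22. The summed level of the list went the other way, 178 FPKM in iron dextran and 225 FPKM in control. GAL, galanin, was higher past 1.5-fold, with 2.72 FPKM in iron dextran and 1.14 FPKM in control. NTS, neurotensin, had 93.2 FPKM in iron dextran and 113 FPKM in control, and CARTPT had 77.8 FPKM in iron dextran and 107 in control.

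Markers of other cells that could carry these transcripts were read beside them. Of the Cajal-Retzius markers, 5 of 6 with a row were below a mean FPKM of 1, and the 1 measured, NHLH2, was lower past 1.5-fold, with 0.572 FPKM in iron dextran and 1.88 FPKM in control. The summed level of the 6 was 1.75 FPKM in iron dextran and 2.88 FPKM in control. Without NHLH2, the other 5 summed to 1.18 FPKM in iron dextran and 0.999 FPKM in control, with 3 above 0 and 2 below, so the direction of the sum rests on NHLH2. For PENK and TAC1, the 5 striatal markers with a row summed to 33.0 FPKM in iron dextran and 39.7 FPKM in control. The dopamine receptors DRD1 and DRD2, which define striatal projection neurons, were near 0, at 0.188 and 0.510 FPKM in iron dextran and 0.0663 and 0.457 FPKM in control. PPP1R1B had 27.8 FPKM in iron dextran and 32.5 FPKM in control, and ADORA2A had 2.29 FPKM in iron dextran and 3.69 in control. The 3 measured striatal markers were below 0 (median −0.34), whereas DRD1 and DRD2, both under the minimum mean level, were above 0. The part of striatal tissue in the difference of PENK was not tested.

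For CALB2, thalamic and habenular markers summed to 19.9 FPKM in iron dextran and 25.5 FPKM in control, with GBX2 and POU4F1 listed at 0 in both and PRKCD at 8.51 FPKM in iron dextran and 12.4 FPKM in control, and LEF1 at 7.70 FPKM in iron dextran and 8.86 in control. The 3 measured were below 0. The list of mossy cell and CA2 markers, of which 3 of 5 with a row were measured, had a median of 0.10. RGS14 had 89.8 FPKM in iron dextran and 83.3 FPKM in control, and STRIP2 had 10.19 FPKM in iron dextran and 9.46 in control. AMIGO2 was below 0, at 5.77 FPKM in iron dextran and 6.78 in control. These 3 mark CA2. The mossy cell markers with a row, CALCRL and CSF2RB, were below the minimum mean level, so the median does not cover mossy cells. For CCK, excitatory neuron markers had a median of −0.087 with 2 of 6 above 0. SV2B had 21.3 FPKM in iron dextran and 23.8 FPKM in control, and CAMK2A was higher past 1.5-fold at 3.93 FPKM in iron dextran and 1.995 in control.

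Markers of the remaining cell classes are given beside these. Pan-neuronal markers summed to 3920.0 FPKM in iron dextran and 4078 FPKM in control (median −0.036). SNAP25 had 952 FPKM in iron dextran and 1032 in control, and STMN2 had 835 FPKM in iron dextran and 871 in control. Of the 7 measured, 5 were below 0 and 2, SYT1 and NEFL, were above it. Astrocyte markers had a median of 0.27, with GFAP at 1145 FPKM in iron dextran and 1275 FPKM in control and GJA1 at 215.5 FPKM in iron dextran and 178 in control. Oligodendrocyte markers had a median of −0.21, with CNP at 762 FPKM in iron dextran and 878 in control. Microglial markers had a median of 0.42, with C1QA at 49.5 FPKM in iron dextran and 42.3 FPKM in control and P2RY12, past 1.5-fold, at 20.05 FPKM in iron dextran and 9.80 in control. Endothelial and pericyte markers had a median of −0.17 over 3 measured genes, 1 above 0 and 2 below. PECAM1 had 14.9 FPKM in iron dextran and 16.9 FPKM in control, and PDGFRB had 4.55 FPKM in iron dextran and 5.41 in control. FLT1 went the other way, at 3.85 FPKM in iron dextran and 3.48 in control. All 3 erythroid markers were higher past 1.5-fold, with HBB at 506 FPKM in iron dextran and 183 FPKM in control, HBM at 6.80 FPKM in iron dextran and 2.89 in control and ALAS2 at 5.78 FPKM in iron dextran and 3.29 in control, and TTR of the choroid plexus list was at 24.2 FPKM in iron dextran and 19.9 in control. The part of these cell types in the differences of the interneuron genes was not tested.

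**Figure D4:**
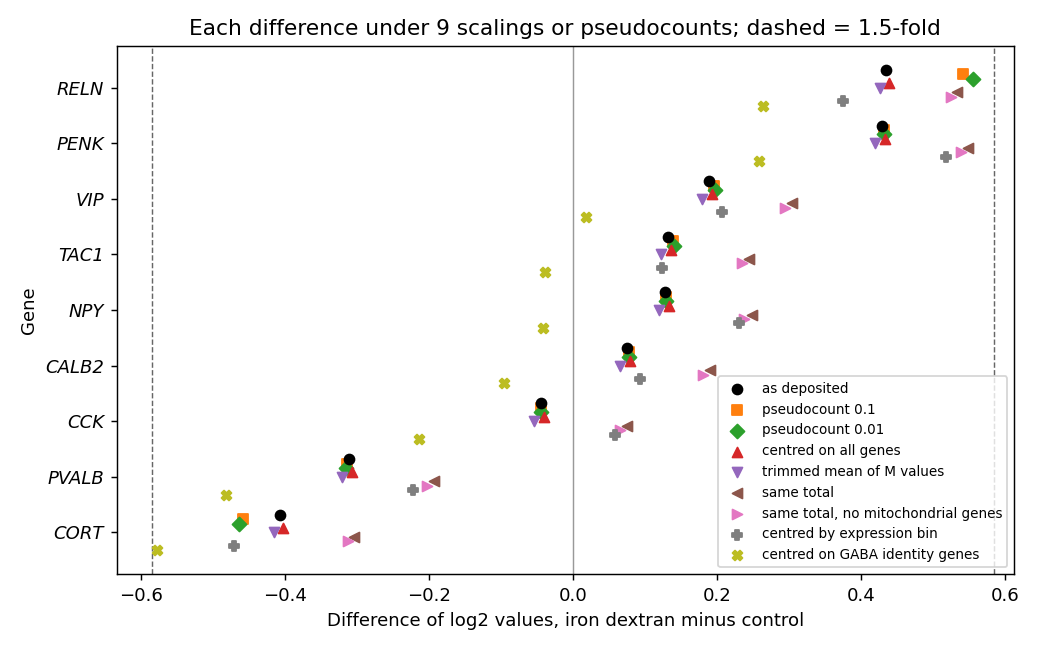
Difference of log2 values, iron dextran minus control, of each of the 9 genes as deposited, with pseudocounts of 0.1 and 0.01, and under 6 other scalings; dashed lines mark 1.5-fold. RELN, PENK and VIP stay above 0 and PVALB and CORT below 0 under all 9, while CCK, CALB2, NPY and TAC1 cross 0 under at least 1 scaling.

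The sign of the small differences depended on the scaling. Scaling both columns to the same total moved the iron dextran values by 0.12 on the log2 scale, the median of all genes to 0.10 and the median of the 9 genes to 0.24. It changed the split of all genes past 1.5-fold to 454 higher and 132 lower, against 310 and 185 as deposited. Centring on the 4 GABA cell genes left 3 of the 9 above 0, RELN, PENK and VIP, with a split of all genes of 177 higher and 436 lower. Of the lists, the medians of the excitatory (0.02) and pan-neuronal (0.08) markers turned above 0 with the same total. With centring on the GABA cell genes, the medians of several other lists turned below 0, to between −0.13 and −0.072. These were the receptor, processing, reelin, transcription factor, other interneuron marker, fast-spiking, and mossy cell and CA2 lists. Centring by expression bin turned the pan-neuronal median to 0.07 and that of the other interneuron markers to −0.014.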

How the data were processed

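RNA sequencing of hippocampus gave 1 iron dextran sample and 1 control sample. The authors deposited FPKM values, listed by Ensembl gene ID, in a single table. Columns were matched to samples by the letter shared by column name and title. The submitters' processing notes name cutadapt 1.2.1, TopHat (a spliced aligner) and the builds Sscrofa10.2 and susScr3. The sources used here do not give the program behind the FPKM, the annotation or the strand setting. FPKM values of abundant genes shift all others. Symbols came from a table that matched 11804 of 25322 IDs, and a RefSeq gene table of Sscrofa11.1 gave only which genes neighbour or overlap each other; no coordinates or sequences are printed.

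The difference of log2(FPKM + 1) was computed for 12557 genes whose mean FPKM reached 1 (Python 3.11.15, pandas 2.3.3) and the size rule was tested on simulated data. Depth was read from 690 low genes, of which 27.7% had ratios within 0.05 log2 units of their peak. With 1 sample a group no test was made, and absolute depth, and so counting error, is unknown. All members were named, with all measured genes of the receptor, processing, reelin and GABA lists; of other lists, the 2 highest and those past 1.5-fold. Some genes that this rule takes are left out of the text, and some that it does not take are named. Members and lists were chosen with earlier results of these data known.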

Additional observations from a re-analysis of the deposited data

How the results depend on the processing

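The median difference of the 9 genes was 0.13 as deposited, 0.10 with the minimum mean FPKM raised to 5 (which removes RELN), 0.12 with a trimmed mean of M values (0.1188) or centring by expression bin (0.1241), 0.24 with the same total (0.2444; 0.2349 without mitochondrial genes) and −0.0416 centred on the GABA cell genes; the last follows from subtracting the median of those genes, 0.17. With the limit at a log2 difference of 0.32, 2 of the 9 were higher and 1 lower; at 1.5-fold and 2-fold, and under the 10 other alternatives, 0 were higher and 0 lower. Over all genes, 310 higher and 185 lower became 558 and 332 with a pseudocount of 0.1, 599 and 357 with 0.01, 113 and 71 with that minimum at 5, 1106 and 748 with the limit at 0.32 and 93 and 53 at 2-fold; without a filter, 434 and 282. The other alternatives moved these counts by less than 1.5 times, except centring on the GABA cell genes. No paired analysis was possible because each group has 1 sample, and leaving out a replicate was not possible for the same reason. Counting error, which weighs most on low genes such as RELN and CORT, cannot be given because absolute depth is unknown.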
